A study of Caenorhabditis elegans with 2 samples.

Results

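The peaks described here are those of the transcription factor CEH-32 whose summit lay in a coding exon or in the 3′ untranslated region (3′ UTR) of a protein-coding gene of the nematode Caenorhabditis elegans. A summit, the single base at which a peak is highest, counted when it fell inside annotated coding sequence or a 3′ UTR, outside every promoter window, taken as 1000 bp before to 500 bp after a protein-coding transcript start, and over 100 bp from genes for transfer, small nuclear, small nucleolar, piRNA or other noncoding RNA. Of 10485 peaks in the pooled list, 10461 were nuclear, and 1688 of these met the rule. They comprised 1333 coding exon peaks and 355 3′ UTR peaks, or 12.7% and 3.39% of the nuclear peaks. In all, 2715 nuclear summits lay in coding sequence or a 3′ UTR, and 994 of them were left out for a promoter window and 33 for a small noncoding gene. The summit of 25 members was coding in 1 transcript and 3′ UTR in another, and these were counted as coding.

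CEH-32 was profiled by chromatin immunoprecipitation and sequencing (ChIP-seq) in whole hermaphrodites at the fourth larval stage, 52 hours after arrested first-stage larvae were released. The strain was OP516, genotype unc-119(tm4063) III; wgIs516, whose transgene encodes CEH-32 with a green fluorescent protein and FLAG tag at its C terminus. An antibody against the fluorescent tag was used on sonicated chromatin of 2 biological replicates, which came from separate worm samples. Both replicates form 1 group from 1 transgenic line, and both carry the unc-119 mutation. Whole worms mix all tissues, so conditions and tissues are not compared, and the values below are descriptions without a test.

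CEH-32 is a homeodomain protein of the sine oculis family, known in the worm for its part in head development. Sequence-specific factors of this kind act mainly through promoters and enhancers. Coding exons carry codon-constrained, comparatively GC-rich sequence, and worm 3′ UTRs are short and rich in A and T. Peaks in transcribed exons are a known class in ChIP-seq lists, and their meaning for gene control is often unclear.

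Coding exon summits were richer in G and C than the coding sequence open to the rule. The 30 bases centred on the summit are shown for the pair of strongest members, for 3 of the next strongest picked because they hold hexamers overrepresented at these summits, and for 2 cuticle collagen genes, the most densely occupied gene list. Each is from the RefSeq sequence of assembly WBcel235, equal to build ce11, and reads 5′ to 3′ on the coding strand of its gene. Capitals mark the 10 hexamers, on either strand, whose share of coding exon windows stood furthest above that of the coding sequence open to the rule in replicate 1. They are spelled out with their shares further on, and several overlap one another, so a longer run of capitals holds more than 1 of them.
pks-1 (X:5429534-5429563, plus strand): tatccaagagactcatctcgtgtcccttcg
sulp-3 (X:8404667-8404696, minus strand): ttccgtgccactgacttttacgaggtagtt
bli-6 (IV:6377756-6377785, plus strand): caggaccaaagggaCCACCAGGAgtcaatg
ced-6 (III:5597293-5597322, plus strand): ctgcactGGCTCCTCCgCCACCAGttgctc
nhr-88 (II:2985530-2985559, plus strand): atttgtgaaaaTGGAGCAaaacgagagccc
col-104 (IV:1354066-1354095, minus strand): gaGCTCCAGGAgacaaaggaaacgacggtg
col-87 (II:14091272-14091301, minus strand): acttccctgggccgccagggccaccgggcc
The pair at pks-1 and sulp-3 held none of the 10 hexamers within these 30 bases, and neither did col-87. The summit at ced-6 had 16 of its 30 bases in such hexamers. Of 8 next strongest members whose bases were read, the 3 shown hold such hexamers, and gei-4, mec-4, vab-19, crh-1 and rfl-1 held none in their 30 bases, and neither did the collagens col-163 and col-99. The collagen col-138, read but not shown, had 22 of its 30 bases in such hexamers.

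Coding exon and 3′ UTR peaks were common in the body of the pooled list and scarce at its top. The list is titled by its authors as peaks and background for a reproducibility analysis, so it holds background regions by design. The authors' optimal list, their reproducible set, held 388 nuclear peaks. Of the 1688 members, 2 were in it, both coding, where 3.71% of all nuclear pooled peaks were. No 3′ UTR peak was among these 388, a count that allows a share of up to 0.773% of that list. Members made up 0.515% of the peaks ranked 1 to 388 by signal, 3.27% of those ranked 389 to 1000, 12.8% of those ranked 1001 to 2000 and between 16.6% and 19.5% of each later bin. The first bin was cut at the size of the optimal list. In the pooled list it held the same 2 members and as many promoter window, intron and intergenic peaks. It is therefore not a second observation. The replicates, called separately, had the same shape. In replicate 1 members were 0.773%, 4.90% and 13.7% of the 3 strongest bins and 18% to 20.4% of the later ones. In replicate 2 they were 1.55%, 10.3% and 13.0% of the 3 strongest bins and 16.9% to 19% of the later ones.

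**Figure D1:**
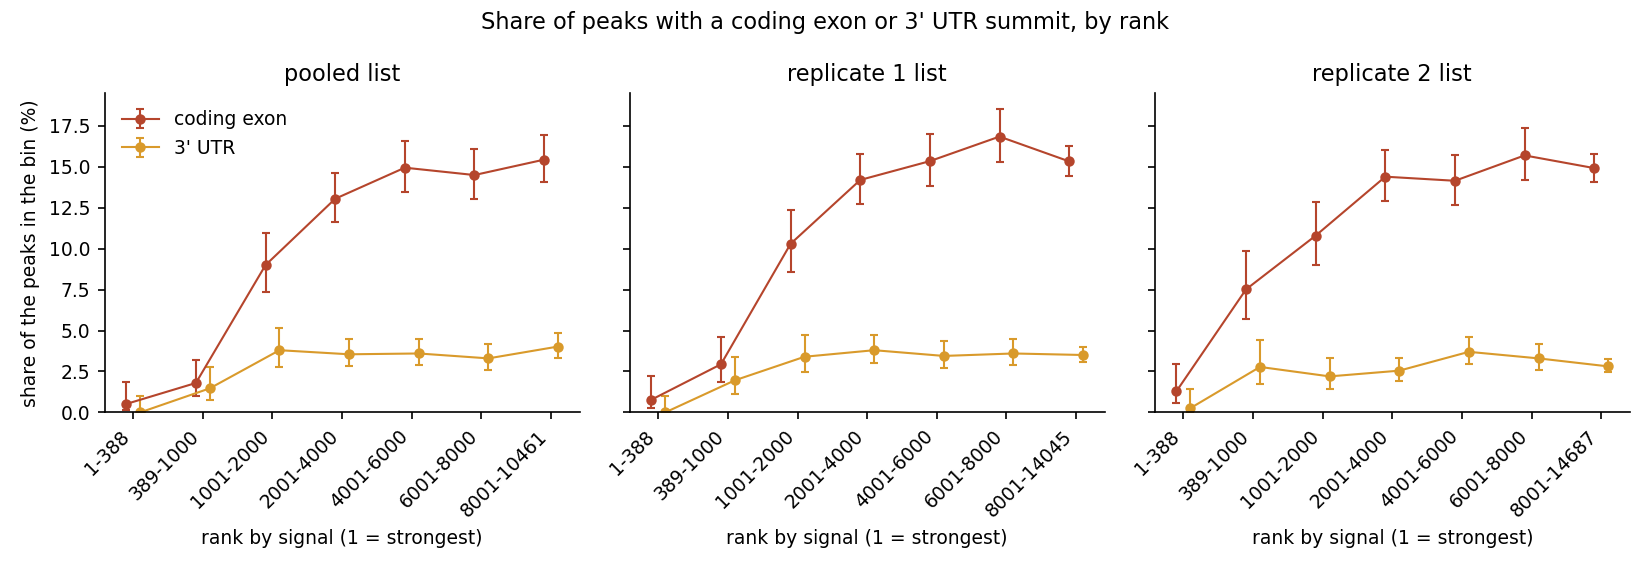
Share of the peaks in each bin of rank (x axis, rank 1 is the strongest signal) that had their summit in a coding exon or a 3′ UTR (y axis, %), in the pooled list and in the list of each replicate, with Wilson 95% intervals. The coding exon share was 1.29% or less in the strongest 388 peaks of every list and 13.05% to 16.85% in each bin below rank 2000.

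The signal of most members was close to the floor of the list. Signal is the value the authors' peak caller gave each peak, and its scale differs between lists. Coding exon peaks had a median of 32.1 (lowest 27.1, highest 204.5) and 3′ UTR peaks a median of 32.6 (lowest 27.1, highest 76.7), against a median of 33.8 and a highest value of 434.6 among all other nuclear peaks. A signal over 50 was reached by 46 coding exon peaks (3.45%), 20 3′ UTR peaks (5.63%) and 1310 other nuclear peaks (14.9%). The share was 13.2% of all nuclear peaks and 7.16% of intron and 5′ UTR peaks. A q-value of 0.05 or less, reading the deposited column as the narrowPeak format defines it since no label names it, was held by 12 coding exon and 8 3′ UTR peaks, together 1.18% of members, where 9.37% of all nuclear peaks and 10.9% of the other nuclear peaks reached it. Near the edges of the rule the signal was alike on either side. The 81 members within 100 bp beyond the 500 bp edge of a promoter window had a median signal of 31.3, and the 85 peaks within 100 bp inside it had 32.1. At the 1000 bp edge the numbers were 39 members with a median of 31.0 and 31 left-out peaks with 31.6, and within 50 bp of the distance limit to small noncoding genes they were 16 with 32.6 and 16 with 30.1.

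Per length of sequence that the rule allows, called eligible sequence here, 3′ UTRs were denser in peaks than coding exons. The pooled list had 160 peaks per Mb of eligible 3′ UTR and 81.6 per Mb of eligible coding exon. For comparison, introns with 5′ UTRs had 85.9 per Mb, sequence between genes 84.1 and promoter windows 129. This order of 3′ UTRs over coding exons held in each replicate, at 215 and 121 per Mb in replicate 1 and 189 and 125 per Mb in replicate 2. These lists hold more peaks than the pooled one, with 2454 members of 14045 nuclear peaks in replicate 1 and 2461 of 14687 in replicate 2.

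The members recurred in the replicates less often than other peaks over the whole list. The gap narrowed within bins of pooled rank, which is not independent of recurrence. A summit within 100 bp was found in both replicate lists for 293 members, 17.4% (Wilson 95% interval 15.6% to 19.2%), where 24.2% of all nuclear pooled peaks had one. The share was 17.9% (15.96% to 20.1%) for coding exon peaks and 15.2% (11.8% to 19.3%) for 3′ UTR peaks, against 25.5% (24.6% to 26.5%) for all other nuclear peaks. Introns, at 16.9%, were close to the members, and promoter windows reached 28.4%. A further 67.7% of members were found in 1 replicate only and 14.9% in neither. Within bins of pooled rank the shares came closer. The pooled signal comes from the same libraries as the replicate lists, so pooled rank and recurrence are linked. Near-equal shares in these bins therefore cannot decide whether members recur as often as other peaks of like strength. In ranks 389 to 1000 the share was 65.0% of 20 members (43.3% to 81.9%) and 78.9% of other peaks. In ranks 1001 to 2000 it was 56.2% of 128 members and 56.0% of other peaks, in ranks 2001 to 4000 it was 33.7% and 32.4%, and in ranks 4001 to 6000 it was 14.02% and 13.5%.

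Ranked by a single replicate, members recurred less than all other nuclear peaks together, with the widest gap among strong peaks. In ranks 389 to 1000 of replicate 1, 5 of 30 members (16.7%, Wilson 95% interval 7.34% to 33.6%) had a summit within 100 bp in replicate 2, against 56.2% (52.1% to 60.2%) of the other peaks of that bin. In the same ranks of replicate 2, 14 of 63 members (22.2%, 13.7% to 33.9%) were found in replicate 1, against 50.5% (46.3% to 54.6%) of the others. In these ranks the intervals do not overlap in either direction. Below rank 2000 the shares came closer, with 18.1% of members and 19.02% of other peaks in ranks 2001 to 4000 of replicate 1, and 15.3% (11.9% to 19.6%) and 21.9% (19.99% to 23.97%) in those ranks of replicate 2, where the intervals still do not overlap. Nor do they below rank 8000 of replicate 1, at 7.55% (6.15% to 9.23%) of members and 10.1% (9.26% to 10.9%) of other peaks. Intron and 5′ UTR peaks were above the members in ranks 389 to 1000, at 47.7% in replicate 1 and 33.7% in replicate 2. In ranks 2001 to 4000 they were below the members, at 13.4% and 14.6%. They were also below them past rank 8000 of replicate 1, at 7.17%. The lower shares in these weaker bins were thus not particular to the members. Over whole lists, 11.7% of the members of replicate 1 were found in replicate 2, against 19.01% of its other peaks, and 11.6% of the members of replicate 2 were found in replicate 1, against 18.04%.

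**Figure D2:**
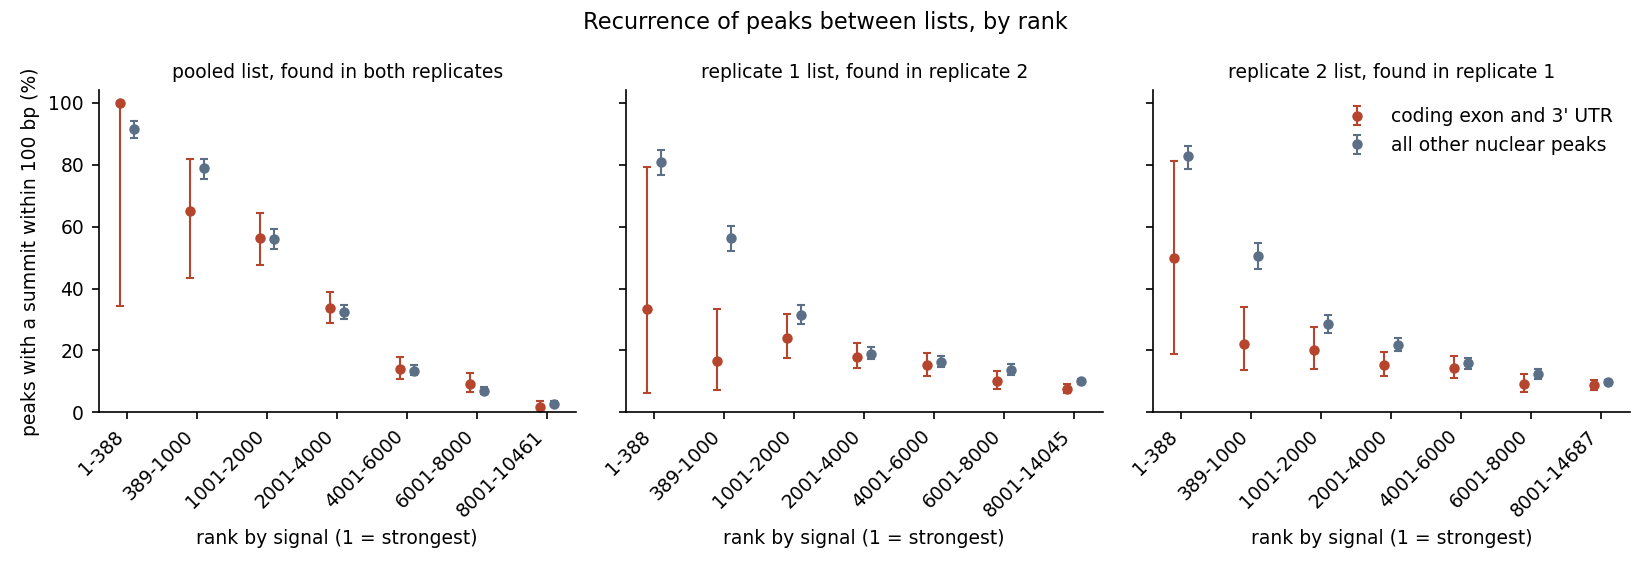
Share of peaks with a summit within 100 bp (y axis, %) by bin of rank (x axis) for coding exon and 3′ UTR peaks and for all other nuclear peaks, with Wilson 95% intervals, in the pooled list (found in both replicates) and in each replicate list (found in the other replicate). In the pooled list, whose ranks are set by signal from the same libraries, the intervals overlap in every bin. In the replicate lists the members lie below the other peaks in ranks 389 to 1000, at 16.7% against 56.2% and at 22.2% against 50.5%. The members stay lower by less in the weaker bins of the replicate lists.

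Signals of the members found in both replicates were only weakly related between them. The rank correlation (Spearman's rho) over 239 coding exon peaks was 0.08, with a Pearson's r of 0.58. Over 54 3′ UTR peaks rho was 0.13. Promoter window peaks had a rho of 0.54 (n = 1177) and intron peaks 0.46 (n = 337). These points share their pooled libraries and span different ranges of signal. In a shared range, pooled ranks 1001 to 4000, rho was -0.27 for coding exon peaks (n = 153) and -0.23 for promoter window peaks (n = 540). The value was below 0 in every class within this range, which was set on the pooled signal of the same libraries.

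**Figure D3:**
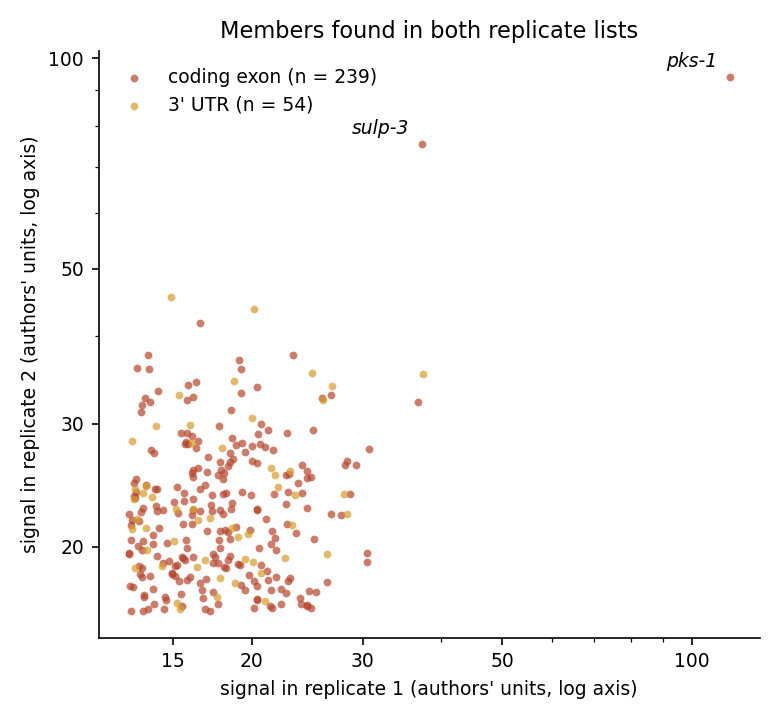
Signal in replicate 1 (x axis) and in replicate 2 (y axis), both in the authors' units on log axes, for the 239 coding exon and 54 3′ UTR peaks found in both lists. The peaks at pks-1 (114.9 and 93.9) and sulp-3 (37.2 and 75.3) stand apart from a cloud with little slope.

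The strongest member lay in pks-1 (WBGene00016558), which encodes a polyketide synthase, a large enzyme that builds a natural product in the CAN neurons. Its peak at X:5429339-5429758 had its summit at 5429549 in the coding segment 22 of 30. Its pooled signal was 204.5 (rank 33 of the nuclear peaks), with 114.9 in replicate 1 and 93.9 in replicate 2. The summit was 15739 bp from the transcript start, 9863 bp from the nearest small noncoding gene and 21620 bp from the next pooled summit. Of the 4 hexamers of known factors given further on, none was within 50 bp of it.

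The second member of the optimal list lay in sulp-3 (WBGene00018283), which encodes an anion transporter of the sulfate permease family. Its summit at X:8404682, in the coding segment 14 of 15, had a signal of 96.2 (rank 250), 37.2 in replicate 1 and 75.3 in replicate 2. A transfer RNA gene on the other strand, WBGene00023042 at X:8404499-8404571, ended 111 bp from this summit and lay inside the peak at X:8404472-8404891. The rule kept this peak because the gene lay beyond 100 bp, and a limit of 500 bp would have left it out. Another pooled summit lay 203 bp away. What part the transfer RNA gene has in this peak was not tested.

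Signals at the next coding exon members were far lower. The summit in gei-4 had 66.9 pooled, with 36.7 in replicate 1 and 32.2 in replicate 2. The summit in ced-6, an adaptor protein for the engulfment of dying cells, had 63.7, with 26.7 in replicate 1 and 32.95 in replicate 2. The summit in mec-4, a channel subunit of the touch receptor neurons, had 65.1, with 19.2 in replicate 1 and 35.96 in replicate 2. All 3 were found in both replicates, and all were below the lowest optimal nuclear peak, which had 81.6. Others were found in 1 list only. The summit in bli-6, a cuticle collagen, had 66.04 and was found in replicate 1 alone (36.8), and those in vab-19, an attachment protein of the epidermis (59.998), and crh-1, the worm CREB transcription factor (56.9), were found in replicate 2 alone, at 45.2 and 45.5. The summits in nhr-88, a nuclear hormone receptor (58.2), and rfl-1, a subunit of the enzyme that activates the ubiquitin-like protein NEDD8 (56.4), were found in both, at 19.1 and 37.0 for nhr-88 and at 13.1 and 36.1 for rfl-1. On chromosome I, F53F10.1 (59.7) and mec-19 (59.4) were found in both as well, at 25.8 and 32.7 for F53F10.1 and at 16.6 and 41.8 for mec-19. Several of these were not isolated. Another pooled summit lay 236 bp from that in bli-6, 205 bp from vab-19, 216 bp from F53F10.1 and 251 bp from nhr-88.

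Among the 3′ UTR peaks the strongest was in hpl-1, a homologue of heterochromatin protein 1. Its summit at X:13246844, 9 bp past the stop codon, had a signal of 76.7 (rank 452), 37.4 in replicate 1 and 35.4 in replicate 2. The hexamer GAGAGA lay within 50 bp of it, and another pooled summit 199 bp away. The summit in eat-16, a regulator of G protein signalling, had 64.6, with 20.2 in replicate 1 and 43.8 in replicate 2, and that in H14E04.2 had 64.9, with 14.9 and 45.6. The summit shared by ubq-1, which encodes polyubiquitin, and F25B5.5 had 65.6 and was found in replicate 1 alone (24.7). Those in bed-2 (63.4) and mvk-1, mevalonate kinase (62.5), were found in replicate 2 alone, at 32.7 and 38.1. Another pooled summit also lay 274 bp from that in eat-16, 201 bp from ubq-1, 203 bp from bed-2 and 203 bp from mvk-1. Of these 6 strongest 3′ UTR peaks, 3 had a summit in both replicate lists, where 15.2% of all 3′ UTR peaks had one. All 6 were in pooled ranks 389 to 1000, where 78.9% of other nuclear peaks had one.

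Coding exon summits were richer in G and C than eligible coding sequence, and 3′ UTR summits were close to eligible 3′ UTR sequence. Over the summit and 50 bases on either side, GC was 46.0% ± 9.1 at coding exon peaks (SD over 1333 windows, which are not replicates) and 41.3% ± 6.7 at eligible coding positions taken at even steps. Windows 400 bp to either side had 37.7% at the peaks and 36.9% at the eligible positions. The difference from the flanks was 8.29 percentage points at peaks and 4.45 at eligible positions. In the replicate lists the difference at coding exon peaks was 7.01 and 7.70 points. The GC was 47.1% for the 239 summits in both replicates, 44.6% for the 195 in neither and 48.1% for the 100 strongest. At 3′ UTR peaks GC was 31.0% ± 8.4 (355 windows), against 31.4% ± 7.1 at eligible 3′ UTR positions, and the difference from the flanks was -4.83 points at peaks and -4.25 at eligible positions. An excess of GC over the sequence of its own class was shared by other peaks. In the pooled list, against all bases of the class, it was 3.19 points at coding exon peaks and 0.49 at 3′ UTR peaks, and 3.17 at intron and 5′ UTR, 2.79 at intergenic and 3.97 at promoter window peaks.

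**Figure D4:**
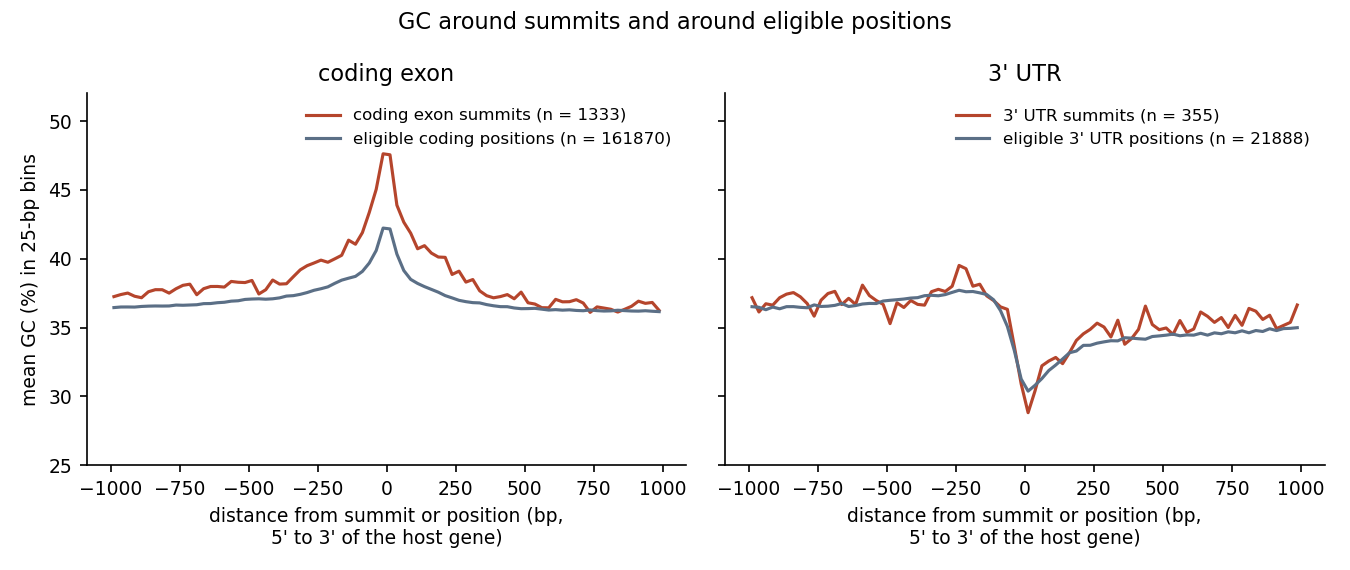
Mean GC (y axis, %) in 25-bp bins by distance from the summit (x axis, in bp, in the 5′ to 3′ direction of the host gene) for coding exon and 3′ UTR peaks of the pooled list and for eligible positions of each class. Coding exon summits reach 47.6% in the central bins, against 42.2% at eligible coding positions, and the 3′ UTR curves lie close together, with 28.8% and 30.4% just after the centre.

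The hexamers furthest above eligible sequence were GC-rich at coding exon summits and rich in A and T at 3′ UTR summits. They were ranked in replicate 1 and read in replicate 2. GCTCCA was in 13.7% of coding exon windows of replicate 1 and 13.2% of those of replicate 2, against 8.89% of eligible coding windows of the same length. GGAGCC was in 8.99% and 9.01% of these windows, against 4.38% of eligible ones. The other 8 were likewise above the eligible windows in both replicates. In replicate 2 the share was 11.7% for GGAGCA (8.14% of eligible windows), 9.01% for CTCCTC (5.58%), 10.6% for CCACCA (7.33%) and 8.37% for CCAGGA (4.87%). It was 7.74% for CGGAGC (4.68%), 10.1% for GGAGGA (6.27%), 6.22% for CGGCTC (3.55%) and 7.30% for CACCAG (4.75%). All 10 also stood above the eligible windows among the 1807 coding exon peaks of replicate 2 with no summit within 100 bp in replicate 1, with GCTCCA at 12.7% and GGAGCC at 8.63%. The furthest below eligible sequence was TGAAAA, which was still in more windows than GCTCCA, at 16.98% of coding exon windows of replicate 1 and 17.9% of those of replicate 2, against 21.8% of eligible windows. At 3′ UTR summits AATAAT was in 31.6% of windows of replicate 1 and 32.0% of those of replicate 2, against 24.6% of eligible 3′ UTR windows, and ATATTA in 19.6% and 17.9%, against 12.6%. For 3′ UTRs not all held: ACATAT was in 13.7% of windows of replicate 1, but in 8.35% of those of replicate 2, against 8.03% of eligible windows.

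In the pooled list the share in eligible windows lay within the interval at the summits for each hexamer of a known factor, apart from TGATAA at coding exon summits, and several shares moved between lists. They were searched on both strands within 50 bp of the summit. TGATAC, a core motif of sine oculis proteins, was found in 3.98% of coding exon windows (Wilson 95% interval 3.05% to 5.16%), against 4.30% of eligible coding windows, and in 4.23% of 3′ UTR windows (2.58% to 6.85%), against 3.97% of eligible ones. GAGAGA, a repeat bound by GAGA factors in flies, was in 4.58% (3.58% to 5.83%) of coding exon windows, against 5.30% of eligible windows. In 3′ UTR windows it was in 9.30% (6.70% to 12.8%), against 7.31% of eligible windows, and in promoter window peaks it was in 10.6%. TAATTA, a core of many homeodomains, was in 2.25% and 9.58% of coding exon and 3′ UTR windows, against 2.15% and 7.31% of eligible windows. TGATAA, a site of GATA factors, was in 7.13% (5.87% to 8.63%) of coding exon windows, against 9.18% of eligible windows, and in 14.1% (10.8% to 18.1%) of 3′ UTR windows, against 11.9%. The replicate lists did not all keep these orders. TGATAC was in 3.79% of coding exon windows of replicate 1 and 2.94% of those of replicate 2, both below the eligible 4.30%. GAGAGA was in 6.16% and 4.95% of coding exon windows in replicates 1 and 2, on either side of the eligible 5.30%, and in 9.47% and 11.5% of 3′ UTR windows, above the eligible 7.31%. TGATAA was in 7.43% and 7.84% of coding exon windows, below the eligible 9.18% in both, but at 3′ UTR summits it was in 8.59% in replicate 2, below the eligible 11.9%. A match is a description of the letters and not a bound site.

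Codons for proline, glycine and alanine were more frequent at coding exon summits. Within the 33 codons around the summit, proline was 7.47% of codons at members and 4.97% at eligible coding positions, a ratio of 1.5, with 1.33 in replicate 1 and 1.31 in replicate 2. Glycine was 7.19% and 5.37%, and alanine 8.04% and 6.37%. Isoleucine was lower, at 4.81% and 6.13%. The codons of proline, glycine and alanine all have G or C at their first 2 positions, and the third position was G or C in 43.5% and 39.2% of codons. GC content and amino acid content cannot be told apart here.

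The most densely occupied gene list was that of cuticle collagens, the secreted proteins that build the worm's exoskeleton and are renewed at each molt. Of 17030 genes with eligible sequence, 1504 held a member, which is 8.83%. Of 165 cuticle collagen and furrow genes, 50 held a member (30.3%, Wilson 95% interval 23.8% to 37.7%), with 53 members in all. The density was 532 summits per Mb of eligible sequence when pooled, with 552 in replicate 1 and 522 in replicate 2, against 92.5, 133 and 133 over all genes. Collagen genes are short, with a median of 574 bp of eligible sequence, but genes with up to 1000 bp of it had 102 summits per Mb in the pooled list. Both replicate lists occupied 21 of these genes, of 50 in replicate 1 and 47 in replicate 2. Over all genes both occupied 697, of 2105 in replicate 1 and 2076 in replicate 2.

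Signals of the collagen members were in the ordinary range. They ran from 27.2 at col-110 to 66.04 at bli-6, with a median of 35.4. Both replicates held 14 of 53 (26.4%), where they held 17.4% of all members and 24.2% of all nuclear peaks. The summit in col-87 had 53.1 pooled, with 28.1 in replicate 1 and 26.2 in replicate 2. That in col-163 had 50.4, with 22.6 and 25.3. The scales of the replicates differ, with a median signal over all nuclear peaks of 16.2 in replicate 1 and 20.7 in replicate 2. Near-equal values in these pairs are therefore not equal signals. Collagen genes known for mutant body shapes were among the hosts, such as dpy-10 (40.3, replicate 1 alone at 27.04), rol-6 (37.4, replicate 2 alone at 33.5), dpy-5 (37.4, replicate 1 alone at 26.5) and dpy-7 (28.3, replicate 1 alone at 15.96). The collagen family is large and alike in sequence, but the 50 bases at every one of the 53 summits occurred once in the nuclear genome. The same was so for 1685 of the 1688 members.

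The composition of the other coding exon members also stood above that of eligible sequence. At the 52 coding exon members in collagen genes GC was 59.6% ± 5.99 (SD), against 55.6% ± 8.4 at eligible positions of the same genes. At the 1281 coding exon members elsewhere it was 45.5% ± 8.8, against 41.2% ± 6.7 at eligible positions elsewhere. Proline was 23.1% and 19.1% of codons in collagen genes and 6.83% and 4.90% elsewhere, at members and eligible positions in turn. The hexamer CCAGGA was in 82.7% of member windows in collagens, against 72.7% of eligible collagen windows, and in 6.71% and 4.50% elsewhere. GCTCCA differed: in collagens it was in 28.8% of member windows, against 34.1% of eligible windows, and elsewhere in 13.3%, against 8.75%. In collagens GGAGCC (26.9% against 28.6%) and GGAGGA (19.2% against 22.3%) were likewise below eligible windows, and CGGAGC was about level (15.385% against 15.429%). Elsewhere these hexamers were above eligible windows.

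Housekeeping lists followed the collagens. Genes of ribosomes, translation and chaperones held members in 15 of 81 genes (18.5%), at 229 summits per Mb when pooled, with 372 in replicate 1 and 243 in replicate 2. Of the 16 members in this list only 1, in hsp-6, was found in both replicates, where 17.4% of all members were. Examples were hsp-6, the mitochondrial HSP70 (48.0 pooled, with 17.8 in replicate 1 and 26.4 in replicate 2), hsp-1, a cytosolic HSP70 with a 3′ UTR peak (48.0, replicate 2 alone at 50.5), eef-2, translation elongation factor 2 (47.3, replicate 1 alone at 31.7), and rps-6, a small ribosomal subunit protein (46.2, replicate 2 alone at 18.1). Energy and lipid metabolism had 12 of 45 genes (26.7%), with 220, 382 and 279 summits per Mb in the pooled list, replicate 1 and replicate 2. They included eat-6, the sodium pump alpha subunit (45.8, with 22.6 and 23.02), pod-2, acetyl-CoA carboxylase (44.4, in neither replicate), and sdha-1, a subunit of succinate dehydrogenase with a 3′ UTR peak (36.4, with 17.6 and 16.9). Splicing and RNA processing had 9 of 38 genes and 132 summits per Mb, led by the mRNA export factor nxf-1 (50.2, with 15.8 and 32.4) and the microRNA effector ain-1 (48.2, replicate 2 alone at 38.5). Transcription and chromatin had 14 of 50 genes and 112.3 summits per Mb, led by the Mediator subunit mdt-15 (50.8, with 24.5 and 25.1) and set-16, a histone H3 lysine 4 methyltransferase (47.8, with 13.8 and 32.2). In replicates 1 and 2 splicing genes had 199 and 227 summits per Mb, and transcription genes 148 and 179. Over all genes 8.83% held a member, at 92.5, 133 and 133 per Mb. Median eligible sequence was 1254 bp for metabolism, 2444.5 bp for splicing and 3457.5 bp for transcription, against 775 bp over all genes. Both replicates held 4 of 15 metabolism members, 4 of 14 splicing members and 8 of 22 transcription members.

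In the pooled list the tissue lists were near or below the 92.5 summits per Mb of all genes, and in the replicates several were not. Members were in 11 of 39 body wall muscle genes (62.7 summits per Mb), 9 of 32 basement membrane and matrix genes (52.6), 8 of 36 cytoskeletal genes (62.1), 8 of 37 pan-neuronal genes (72.1) and 8 of 49 germline genes (92.2). The shares of genes were above 8.83% in these 5 lists, whose genes had medians of 1677 to 3958 bp of eligible sequence, against 775 bp over all genes. Longer genes more often held a member, from 4.88% of genes with up to 1000 bp of eligible sequence to 29.2% of those with over 8000 bp, while summits per Mb were 102 and 35.7. The strongest in muscle were unc-54, the major muscle myosin (44.02, with 16.97 and 21.03), and the calcium pump gene sca-1 (40.9, replicate 1 alone at 24.8). In the matrix list they were fbn-1 (39.7, with 19.04 and 20.7) and the spectraplakin gene vab-10 (38.5, replicate 2 alone at 23.2), and among cytoskeletal genes vab-19, given above, and the ankyrin gene unc-44 (44.5, replicate 2 alone at 44.04). In neurons they were the channel gene unc-77 (43.6, with 22.8 and 23.97) and the syntaxin gene unc-64 (43.3, with 21.8 and 25.3), and in the germline larp-1 (50.2, with 26.7 and 22.3) and the Argonaute gene csr-1 (37.5, with 20.2 and 17.9). Set against 133 summits per Mb over all genes in each replicate, muscle had 145 in replicate 1 and 62.7 in replicate 2, the matrix list 143 and 100.4, and cytoskeletal genes 137 and 124. Pan-neuronal genes had 123 and 151, and germline genes 138 and 149.8, above all genes in both. No direction relative to all genes held in all 3 lists for any of these 5 lists. No vitellogenin or intestine gene of 29 held a member of the pooled list, which allows a share of up to 10.3%, though replicate 1 had 8 summits in this list and replicate 2 had 2.

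Large families of environmental genes had few members. Chemoreceptors held members in 28 of 1262 genes (2.22%, Wilson 95% interval 1.54% to 3.19%) and environmental and immune families in 22 of 895 (2.46%, 1.63% to 3.69%). Each had 38.6 summits per Mb in the pooled list, and the values were 55.2 and 66.3 in replicate 1 and 67.6 and 61.7 in replicate 2, for chemoreceptors and environmental families in that order. The strongest chemoreceptors were srt-47 (55.9, replicate 1 alone at 35.1) and str-163 (50.2, replicate 2 alone at 40.9). Among environmental genes they were the C-type lectin gene clec-78 (45.5, with 16.1 and 22.6) and the neuropeptide gene nlp-9 (39.5, replicate 1 alone at 26.9). Both lists were below the level of all genes in the pooled list and in each replicate.

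**Figure D5:**
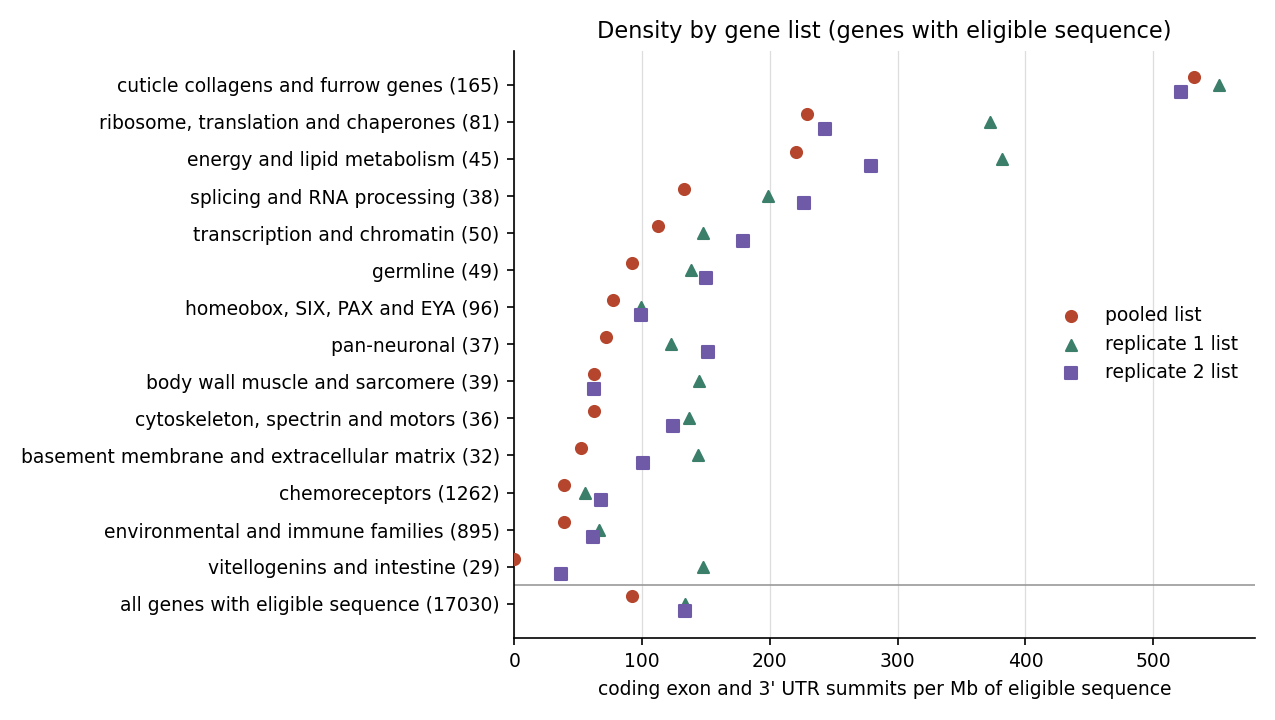
Coding exon and 3′ UTR summits per Mb of eligible sequence (x axis) for 14 gene lists and for all genes (bottom row), in the pooled list and in the list of each replicate, with the number of genes with eligible sequence in brackets. Cuticle collagens lie at 532, 552 and 522 per Mb in the 3 lists, against 92.5, 133 and 133 over all genes, and chemoreceptors and environmental families lie at 38.6 each in the pooled list.

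Homeobox genes and partners of CEH-32 were near the level of all genes. Members lay in 7 of 96 homeobox, sine oculis, PAX and EYA genes (7.29%, Wilson 95% interval 3.58% to 14.3%), against 8.83% of all genes. None of these 7 was found in both replicates, where 17.4% of all members were, and 7 are too few to set apart from that share. The density was 77.1 summits per Mb when pooled and 99.2 in each replicate (9 summits each), against 92.5, 133 and 133 over all genes. The strongest was in the 3′ UTR of ceh-32 itself, with a signal of 46.6 in the pooled list and 23.2 in replicate 2, and no summit nearby in replicate 1. The transgene carries ceh-32 sequence, so reads from it and from the native gene cannot be told apart at this locus. The summit in eya-1, whose product is the worm Eyes absent protein and a partner of sine oculis proteins, had 36.4 and was found in replicate 1 alone (15.01). The others were hmbx-1 (33.7), irx-1 (30.6), egl-38 (28.3), ceh-38 (27.8) and ceh-21 (27.3).

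Members were spread over many genes. Of the 1504 host genes, 1318 held a single member, 156 held 2, 24 held 3 and 6 held 4, and 281 held one that was found in both replicates. The 6 were set-16, mnk-1, a MAP kinase-interacting kinase, gldi-3, ncl-1, a repressor of nucleolar size, let-526, a subunit of the SWI/SNF remodelling complex, and cyld-1, a deubiquitinating enzyme. Their summits ranged from 27.6 to 47.8 in the pooled list. Of these 24, 5 were found in both replicates, where 17.4% of all members were. The gene icl-1 differed: all 3 of its summits were in both lists. This enzyme of the glyoxylate cycle had 46.1 (29.3 in replicate 1 and 26.2 in replicate 2), 43.2 (21.7 and 20.6) and 40.1 (21.8 and 18.1), and the weaker pair lay 222 bp apart. Members also lay close together or close to other peaks: 146 of 1688 (8.65%) were within 1 peak width, 420 bp, of another member. Another pooled summit lay within 1000 bp of 427 (25.3%), and an optimal summit elsewhere within 1000 bp of 10. Shares over all nuclear peaks are not given here, so these counts are not set against other peaks.

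Along the coding sequence the median position was 62.5% of the way from start to stop codon at members and 57.9% at eligible coding positions. The last 10% of the coding sequence had 115.9 summits per Mb when pooled, with 185 in replicate 1 and 153 in replicate 2, against 57.9, 96.7 and 107 in the stretch from 20% to 30%, the lowest in all 3 lists. The first 10%, of which promoter windows leave little, had 90.3 summits per Mb when pooled, 133 in replicate 1 and 158 in replicate 2, so in replicate 2 it was denser than the last 10%. The last coding segment of a gene held 22.7% of members (Wilson 95% interval 20.6% to 25.1%) and 15.5% of eligible positions. Only 13 members were in the first of several segments, which the promoter window mostly covers. Segment length was alike, with a median of 279 bp at members and 284 bp at eligible positions.

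In 3′ UTRs the summits were slightly nearer the transcript end. The median distance past the stop codon was 149 bp at members and 136 bp at eligible positions. Within 100 bp of the annotated transcript end lay 46.2% of members (Wilson 95% interval 41.1% to 51.4%) and 38.8% of eligible positions. The next gene ran towards the host gene for 54.6% of members (49.4% to 59.7%), and for 47.4% of eligible positions. For the 54 in both replicates these shares were 42.6% (30.3% to 55.8%) and 51.9% (38.9% to 64.6%), whose intervals hold the values of the eligible positions.

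Across the chromosomes, coding exon density ran from 57.4 per Mb on V to 98.9 on III, and 3′ UTR density from 126 on V to 202 on IV. The X chromosome had 75.4 coding exon peaks per Mb, against 82.7 on the autosomes, and 156 3′ UTR peaks per Mb, against 162. For both classes together the ratio of X to autosomes was 0.965 pooled, 1.08 for replicate 1 and 0.939 for replicate 2, so its direction differed between replicates. Chromosome V was the lowest for coding exons in each replicate as well, at 100.3 and 95.4 per Mb. This was not particular to the members. In the pooled list V was also the lowest for promoter windows (93.4 per Mb), introns with 5′ UTRs (69.8) and sequence between genes (57.5). On the autosomes, coding exon peaks were denser towards the chromosome ends, in the outer 25% at each side, than in the central 50%. They had 103 against 69.0 per Mb in the pooled list, 128 against 113 in replicate 1 and 163 against 100.7 in replicate 2. Introns had the opposite order, with 73.5 per Mb towards the ends and 94.7 in the centre of the pooled list. 3′ UTR peaks had 151 and 170 per Mb, and here the replicates differed, with 186 and 250 in replicate 1 and 202 and 190 in replicate 2.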

How the data were processed

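Peak lists of 2 biological replicates, of their pool and of an optimal set were used on build ce11. Per the labels and file titles, the relaxed lists hold peaks and background as input for a reproducibility analysis. The signal and the −log10 of the q-value of each peak are the values deposited by the authors; that column 9 is a q-value was taken from the narrowPeak format. The aligner, the peak caller and its thresholds were not given in the sources used here. A control library was not analysed here. Without read counts in the lists, depth is unknown and intervals cover counting error only.

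Summits were classed on Ensembl annotation release 115 of WBcel235, in the order promoter window, small noncoding gene, coding exon, 3′ UTR, intron and intergenic. Eligible positions were taken at a step of one window (the summit and 50 bp on either side) through each class. Sharing meant summits within 100 bp. Intervals are Wilson intervals at 95%, and where a count was 0 the limit is 3 counts of the total. A summit in 2 genes counted for both. Members named in the text were the 12 strongest coding exon and 6 strongest 3′ UTR peaks, the optimal members, genes with 3 or more members and the 2 strongest hosts of each list; other collagens, homeobox genes and rps-6, eef-2 and sdha-1 were chosen after their values were seen. The members, gene lists and hexamers were chosen with earlier results of these data known. On simulated summits the class rule matched a direct interval search in 100%. Planted pairs at most 50 bp apart were all found at 100 bp, which these settings guarantee. This checks the code and not the recurrence shares. Sharing of unrelated summits by accident is not reported here. Alternatives were other promoter windows, distances, windows and single replicates. Tools were Biopython 1.88, SciPy 1.17.1 and pandas 2.3.3 with numpy 2.4.6, under Python 3.11.15, with matplotlib 3.10.9 for plots.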

Additional observations from a re-analysis of the deposited data

How the results depend on the processing

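The number of members stayed within 1.5 times of 1688 under other promoter windows, other distances to noncoding genes and in either replicate list (2454 to 2461 when a replicate was left out), and was 705 over the strongest 50% of the pooled peaks. The share in both replicates, 17.4%, was 10.2% with summits within 50 bp, 26.4% within 200 bp, 36.2% with any overlap of intervals and 34.2% over the strongest 50%, and leaving out a replicate left 43.1% to 59.4% found in the other. The median rank percentile of members, 42.98 in the pooled list, was 45.9 to 46.6 in single replicates. The optimal count of 2 was 1 over the strongest 50% of the optimal list and 22 over the strongest 1000 pooled peaks. The X to autosome ratio of 0.965 was 0.939 to 1.08 with a replicate left out, so its side of 1 differed, and 0.943 to 0.979 under other promoter windows. The GC difference from the flanks at coding exons, 8.29 points, was 9.81 and 6.32 with 25 and 100 bp on each side, 9.001 with flanks at 1000 bp, and 7.01 to 7.70 with a replicate left out; that at 3′ UTRs was -5.82, -3.18, -5.79 and -4.30 to -3.80. It was 7.96 without collagen hosts, an alternative chosen after seeing the data, as was the correlation within a range of ranks. The hexamer shares of all members were 5.57% for GAGAGA, 4.03% for TGATAC, 3.79% for TAATTA and 8.59% for TGATAA. With 25 and 100 bp on each side, GAGAGA was in 2.55% and 10.8% of members, TGATAC in 1.84% and 6.58%, TAATTA in 1.48% and 10.5%, and TGATAA in 4.92% and 16.5%. Leaving out a replicate gave, in that order, 6.05% to 6.81%, 3.09% to 3.95%, 3.54% to 4.03% and 7.96% to 8.31%. Window width sets these shares by construction; for the other changes the cause was not tested. No paired analysis was possible because the study has 1 group. Depth is unknown, and 2 replicates limit every statement on recurrence.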
